A study of Mus musculus with 9 samples.

Results

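Cdc45, Hnrnpd and Wdr77 are genes used by dividing cells, chosen by name from the deposited expression table, in which all 3 were found among 99 genes. Their messenger RNA was measured by sequencing in mouse bone marrow cells sorted for the receptor c-Kit, which marks the stem and progenitor cells that form blood. The series sets mice with a model of chronic myelomonocytic leukaemia (CMML), with or without a conditional knockout of Piezo1, against control mice. Piezo1 is an ion channel opened by mechanical force. The 9 libraries carry the genotype labels NPC, NC and WT, with 3 libraries each, and share the tissue label bone marrow. The labels do not spell out NPC and NC or say which of them is the knockout, so the groups are called by these codes. The labels give no alleles, driver of the knockout, age of the mice or pooling of animals. Whether a group's libraries stem from different animals is not stated, and the p-values then cover the spread of the libraries, which could be technical only.

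Cdc45 is a subunit of the CMG helicase, the complex of Cdc45, the MCM ring and GINS that unwinds DNA at replication forks, and it is made mainly in cells that are entering or passing through S phase. Hnrnpd encodes AUF1, a protein of the nucleus and cytoplasm that binds AU-rich elements in messenger RNAs and alters their decay and translation. Wdr77, also called MEP50, encodes the WD-repeat partner of the arginine methyltransferase PRMT5, and the pair methylates Sm proteins for splicing complexes as well as histones. Progenitor cells of the marrow divide often, and all of these activities are in use there.

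On GRCm39, as the table gives it, Cdc45 (ENSMUSG00000000028) lies on the minus strand of chromosome 16 from 18599197 to 18630722. Hnrnpd (ENSMUSG00000000568) lies on the minus strand of chromosome 5 from 100103794 to 100126797, and Wdr77 (ENSMUSG00000000561) on the plus strand of chromosome 3 from 105866685 to 105877076. The table lists 4 transcripts for Cdc45, 9 for Hnrnpd and 5 for Wdr77, and each set includes retained-intron models. Wdr77 overlaps Atp5pb (ENSMUSG00000000563), which encodes a stalk subunit of mitochondrial ATP synthase and lies on the minus strand from 105850014 to 105867415, so that the 5′ ends of both genes share 731 bp. No other gene of the table overlaps the 3 genes.

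The sequence around each start site is shown because Wdr77 and Atp5pb start back to back from the same stretch of DNA, and because the 3 genes are set side by side throughout. The windows run from 250 bases before to 50 bases after the RefSeq start on GRCm38.p6, 300 bases each, and were matched by gene symbol. They cover chr16:18811923-18812222 on the minus strand for Cdc45, chr5:99978889-99979188 on the minus strand for Hnrnpd and chr3:105959248-105959547 on the plus strand for Wdr77. Capitals mark every match, on either strand, to 4 of the 5 motifs searched, as listed after the sequences.
Cdc45: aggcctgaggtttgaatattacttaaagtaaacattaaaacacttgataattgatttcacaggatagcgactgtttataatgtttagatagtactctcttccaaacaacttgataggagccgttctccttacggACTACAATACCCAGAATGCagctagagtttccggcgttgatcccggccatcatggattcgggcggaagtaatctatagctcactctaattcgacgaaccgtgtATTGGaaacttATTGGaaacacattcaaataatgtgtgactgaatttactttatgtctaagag
Hnrnpd: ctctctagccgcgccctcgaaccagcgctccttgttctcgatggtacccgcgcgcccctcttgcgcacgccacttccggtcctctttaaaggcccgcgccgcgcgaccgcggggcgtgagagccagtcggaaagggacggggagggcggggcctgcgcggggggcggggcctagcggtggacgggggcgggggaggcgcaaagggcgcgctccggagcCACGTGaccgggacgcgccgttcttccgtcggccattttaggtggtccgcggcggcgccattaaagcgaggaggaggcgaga
Wdr77: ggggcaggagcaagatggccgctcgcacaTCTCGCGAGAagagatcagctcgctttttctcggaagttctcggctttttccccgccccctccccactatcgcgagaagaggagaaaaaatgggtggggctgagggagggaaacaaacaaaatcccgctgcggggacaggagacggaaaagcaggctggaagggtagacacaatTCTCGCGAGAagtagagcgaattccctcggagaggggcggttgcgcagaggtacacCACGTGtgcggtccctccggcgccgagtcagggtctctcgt

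The first motif was the E-box CACGTG, bound by Myc with Max and related factors, and it stands in 7.15% of the 32851 mouse start-site windows of this length. Hnrnpd had it at bases 219 to 224, counted from 1 at the 5′ end of the window, and Wdr77 at bases 260 to 265. The second was a 10-base palindrome bound by BANP, TCTCG followed by its reverse complement, found in 0.466% of all windows. The Wdr77 window held it at bases 30 to 39 and again at bases 204 to 213. The third was the CCAAT box, the site of NF-Y, found in 37.4% of windows, and Cdc45 had 2 copies, both read from the opposite strand as ATTGG, at bases 238 to 242 and 249 to 253. The fourth was the long motif of ZNF143 and THAP11, known from human cells and searched as the 19 letters in capitals in the Cdc45 window with any base at the 9th of them. It stood at bases 135 to 153 of the Cdc45 window and in 9 of the 32851 windows (0.0274%). Since the letters searched are those of the Cdc45 window, its match is not a test. The share holds for this spelling only and not for variants of the motif. The fifth was the E2F site, searched as TTTCCCGC, TTTCGCGC, TTTGCCGC or TTTGGCGC. None of these letters stood in the 3 windows, and 2.26% of all windows had any of them. No matches to different motifs overlapped. The RefSeq starts of Wdr77 and Atp5pb are 235 bases apart and point away from each other on GRCm38.p6, and their windows share 266 bases, including both palindromes and the E-box. These are matches of letters, and no binding was measured.

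Levels are given in FPKM, the number of sequenced fragments divided by the gene's length and by the depth of the library, as the authors deposited them. The length in the deposited FPKM was recovered from the ratio of estimated count to FPKM. It came to 3506 nt for Cdc45, 7354 nt for Hnrnpd and 4842 nt for Wdr77, against 3506, 7354 and 4841 nt for all annotated exons merged in GENCODE M21 (GRCm38, used for lengths only). The longest single transcripts there are 2143, 6811 and 4286 nt, so the merged length, which takes in retained introns, puts the FPKM of Cdc45 furthest below a value per messenger RNA. By mean FPKM over the 9 libraries, Hnrnpd ranked 6th of the 62 genes that passed the expression minimum at 48.9 FPKM, Cdc45 18th at 24.5 FPKM and Wdr77 22nd at 17.3 FPKM. All 3 genes passed that minimum, which asks that 3 or more libraries reach 1 FPKM.

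The implied depth ran from 76622393 to 88408926 estimated counts per library, a ratio of 1.15. The 99 genes of the table summed to 387039 to 469541 counts per library, a small part of that depth. Ranks, shares of tested genes and scalings drawn from the table rest on these genes only. About 4 counts stand for 1 fragment. On that scale Cdc45 rested on averages of 1866, 1840 and 1675 fragments per library in NPC, NC and WT, Hnrnpd on 7303, 7395 and 7726, and Wdr77 on 1681, 1825 and 1721. Counting alone gives a coefficient of variation of 2.31% to 2.44% for Cdc45, 1.14% to 1.17% for Hnrnpd and 2.34% to 2.44% for Wdr77. The observed coefficient of variation in NPC, NC and WT was 4.43%, 3.26% and 5.32% for Cdc45, 2.84%, 0.20% and 4.72% for Hnrnpd, and 1.71%, 1.46% and 2.28% for Wdr77. The Wdr77 libraries of a group thus differed by no more than counting error. The observed value lay above counting error for Cdc45 in NPC, NC and WT and for Hnrnpd in NPC and WT. NC replicates 2 and 3 differed by no more than sampling noise once 4 counts were taken as 1 fragment (chi-square over degrees of freedom 1.13, p = 0.206, over 80 genes). They were kept as separate libraries because that count scale is inferred, and averaging them into 1 library changed no call on the 3 genes.

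No marker of c-Kit+ progenitors fixed for this work (0 of 9) was in the table, and Piezo1 was not analysed here, so neither the cell type nor the knockout could be checked against the labels. Of 13 markers of mature granulocytes and monocytes, Itgb2 and Itgb2l were in the table. Their summed level was 162.1 to 163.5 FPKM in NPC, 151.0 to 161.8 FPKM in NC and 123.3 to 128.6 FPKM in WT. The T cell kinase gene Lck, 1 of 7 markers of T and NK cells, lay at 4.82 to 6.00 FPKM in NPC, 4.41 to 4.91 FPKM in NC and 2.96 to 3.52 FPKM in WT. Of 9 erythroid markers only Gmpr was in the table, at 5.39 to 5.97 FPKM in NPC, 4.89 to 5.16 FPKM in NC and 5.59 to 6.42 FPKM in WT. Alox12, 1 of 7 megakaryocyte and mast cell markers, stayed under 0.5 FPKM in every library, and Cav2, 1 of 7 stromal and endothelial markers, lay at 0.954 to 1.21 FPKM in NPC, 1.28 to 1.67 FPKM in NC and 1.54 to 1.82 FPKM in WT. None of 6 B cell markers was in the table. No marker in the table was at 0 in all libraries, and the part of cell composition in the results was not tested.

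Hnrnpd, the gene of the AU-rich element binding protein, was lower in both NPC and NC than in WT. It stood at 47.3, 46.2 and 48.9 FPKM in NPC replicates 1 to 3 and at 47.0, 47.2 and 47.1 FPKM in NC replicates 1 to 3, against 53.7, 53.2 and 49.2 FPKM in WT replicates 1 to 3. Every NPC and NC library lay below every WT library, though the gap between NPC replicate 3 and WT replicate 3 was small. Groups did not overlap for 58.1% of tested genes in NC against WT and 61.3% in NPC against WT. In bulk RNA, fewer cells that express a gene and less of its RNA per cell cannot be told apart.

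Hnrnpd averaged 47.1 ± 0.0951 FPKM in NC and 52.1 ± 2.46 FPKM in WT (SD, n = 3 each). It fell to 0.905 times the WT level in NC, a log2 fold change of -0.14 ± 0.036 (SE; 95% confidence interval -0.22 to -0.071; edgeR quasi-likelihood test, Benjamini-Hochberg adjusted p = 0.00107). In NPC it averaged 47.5 ± 1.35 FPKM and fell to 0.912 times the WT level, a log2 fold change of -0.13 ± 0.036 (-0.21 to -0.060; edgeR adjusted p = 0.00196). Both comparisons use the same 3 WT libraries and are not independent. Between NPC and NC the log2 fold change was 0.011 ± 0.036 (-0.062 to 0.085; edgeR adjusted p = 0.886), so the interval leaves room for NPC at 0.958 to 1.06 times NC.

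Both falls of Hnrnpd against WT kept their direction and passed the threshold in all 23 alternatives. Adjusted p ran from 2.18e-05 to 0.0193 for NC and from 3.97e-05 to 0.0222 for NPC. WT replicate 3, the lowest WT library, had the most influence of any single library: without it the log2 fold changes were -0.18 for NC and -0.17 for NPC. In size these falls were moderate for the table, the 28th largest of 62 for NC against WT and the 35th for NPC against WT.

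**Figure D1:**
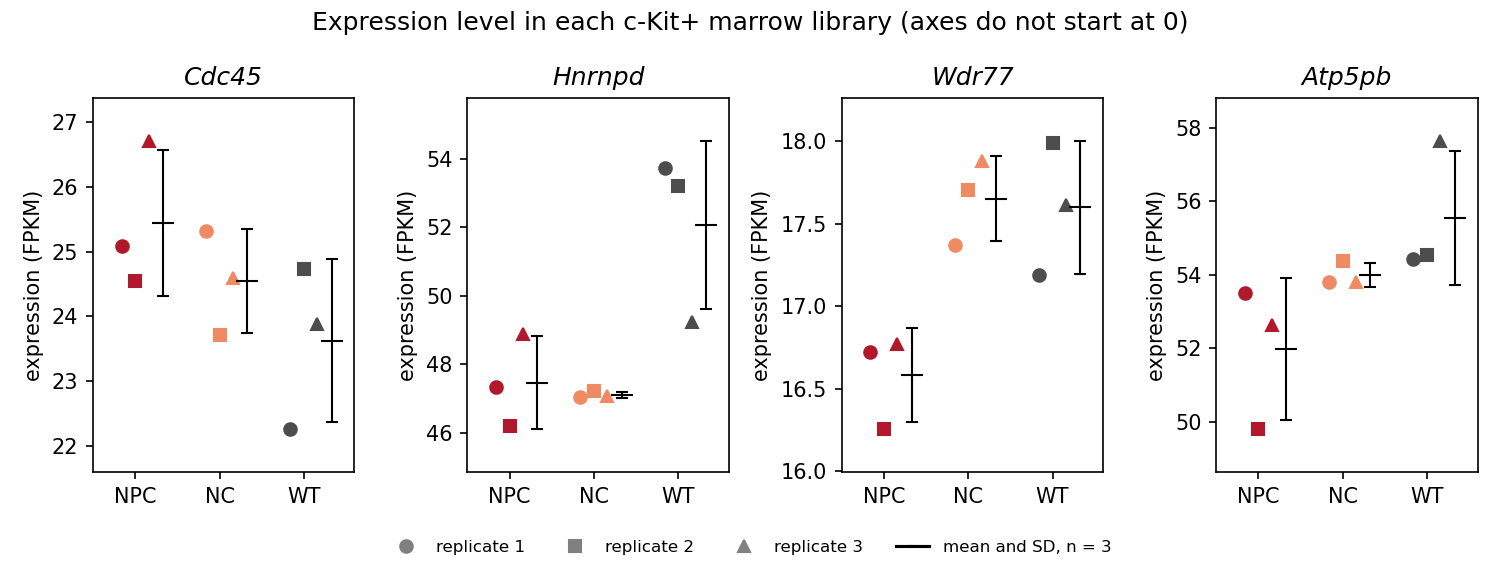
Expression in FPKM (vertical axes, which do not start at 0) of Cdc45, Hnrnpd, Wdr77 and Atp5pb in each of the 9 libraries, by group, with the mean and SD of 3 libraries beside the points. Every NPC and NC library lies below every WT library for Hnrnpd, the groups overlap for Cdc45, and the NPC libraries lie lowest for Wdr77.

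Cdc45, the helicase gene, had its highest mean in NPC, with small differences and overlapping groups. The values were 25.1, 24.5 and 26.7 FPKM in NPC replicates 1 to 3, 25.3, 23.7 and 24.6 FPKM in NC replicates 1 to 3, and 22.3, 24.7 and 23.9 FPKM in WT replicates 1 to 3. WT replicate 1 was the lowest of the 9 libraries and NPC replicate 3 the highest, and WT replicate 2 lay above NPC replicate 2.

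Cdc45 averaged 25.4 ± 1.13 FPKM in NPC and 23.6 ± 1.26 FPKM in WT (SD, n = 3 each). NPC was 1.08-fold higher, a log2 fold change of 0.11 ± 0.044 (SE; 95% confidence interval 0.019 to 0.20; edgeR adjusted p = 0.0298), but under quantile normalization the sign turned, to -0.062 (limma adjusted p = 0.145). This call was not stable to single libraries. Without WT replicate 1 the log2 fold change was 0.066 (edgeR adjusted p = 0.235), without NPC replicate 3 it was 0.071 (edgeR adjusted p = 0.181), and without WT replicate 3 it was 0.11 (edgeR adjusted p = 0.0513).

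Against WT, NC averaged 24.5 ± 0.799 FPKM of Cdc45, a log2 fold change of 0.055 ± 0.044 (SE; 95% confidence interval -0.033 to 0.14; edgeR adjusted p = 0.324). Quantile normalization turned this value into a call in the other direction, at -0.12 (limma adjusted p = 0.0282). That method sets the same distribution over only 62 genes in each library, so a gene's value there also depends on the ranks of the others. Whether this moved Cdc45 was not tested. The value was 0.014 with library sizes set to the table's summed counts, 0.015 without WT replicate 1, 0.032 without NC replicate 1 and 0.090 without WT replicate 2. Between NPC and NC the log2 fold change was 0.052 ± 0.044 (-0.036 to 0.14; edgeR adjusted p = 0.454). It was 0.016 without NPC replicate 3 and 0.028 without NC replicate 2, and 0.086 with DESeq2 or the median of ratios. The intervals allow an NC level of 0.977 to 1.10 times WT and an NPC level of 0.975 to 1.10 times NC.

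Wdr77, the gene of the PRMT5 partner, had nearly the same level in NC and WT and lower values in NPC that did not pass the test over all genes. It stood at 16.7, 16.3 and 16.8 FPKM in NPC replicates 1 to 3 and at 17.4, 17.7 and 17.9 FPKM in NC replicates 1 to 3, against 17.2, 18.0 and 17.6 FPKM in WT replicates 1 to 3. All 3 NPC libraries lay below all 6 other libraries, and the NC and WT values were interleaved. Groups did not overlap for 27.4% of tested genes in NPC against NC and 61.3% in NPC against WT. The NPC libraries of Atp5pb also lay below all others.

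Wdr77 averaged 16.6 ± 0.284 FPKM in NPC and 17.7 ± 0.258 FPKM in NC (SD, n = 3 each), and NPC was at 0.940 times the NC level. The log2 fold change was -0.090 ± 0.039 (SE; 95% confidence interval -0.17 to -0.010), with an unadjusted p of 0.0283 and an adjusted p of 0.117 in edgeR. This value was smaller with DESeq2 (-0.056) and with the median of ratios as scaling (-0.056), and under quantile normalization there was no difference (0.0000). Against WT, which averaged 17.6 ± 0.402 FPKM, the value for NPC was -0.086 ± 0.039 (-0.17 to -0.0058), with an unadjusted p of 0.0362 and an adjusted p of 0.0535 in edgeR. The value against WT stood at the threshold and passed it in 4 of 23 alternatives, with library sizes set to the table's summed counts (log2 fold change -0.13), the stricter filter, robust moderation and without NPC replicate 1. Under quantile normalization it was -0.055 (limma adjusted p = 0.0845). The log2 fold change of Wdr77 was 0.0042 ± 0.039 between NC and WT (-0.075 to 0.084; edgeR adjusted p = 0.945), which leaves room for NC at 0.949 to 1.06 times WT.

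Atp5pb, whose 5′ end overlaps Wdr77, was about 3 times as abundant per length. Its values were 53.5, 49.8 and 52.6 FPKM in NPC, 53.8, 54.4 and 53.8 FPKM in NC, and 54.4, 54.6 and 57.6 FPKM in WT. It fell to 0.936 times the WT level in NPC (-0.096 ± 0.036 on the log2 scale, SE; edgeR adjusted p = 0.0214). That call was lost without WT replicate 3 (edgeR adjusted p = 0.126), without NPC replicate 2 (edgeR adjusted p = 0.125), under quantile normalization or with limma on log2(FPKM + 1) or log2(FPKM + 0.1). The ratio of Wdr77 to Atp5pb was 0.319 ± 0.00694 in NPC, 0.327 ± 0.00482 in NC and 0.317 ± 0.0121 in WT (SD, n = 3 each). Exact two-sided permutation tests of the log2 ratio gave p = 0.3 for NC against WT, 0.3 for NPC against NC and 0.9 for NPC against WT, where 3 against 3 libraries cannot go below 0.10. The libraries keep strand information, but no source used here says whether the counting used it, so reads from the shared 731 bp may have been counted for either gene.

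**Figure D2:**
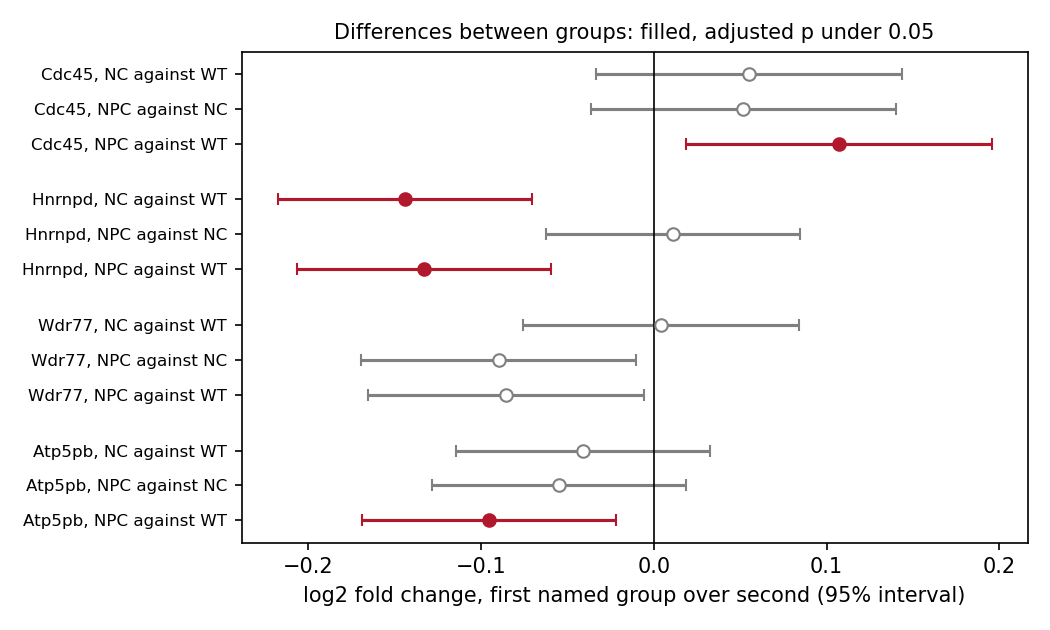
Log2 fold change (horizontal axis, first named group over second) with its 95% interval for the 3 genes and Atp5pb in each comparison, from the edgeR fit of all 9 libraries; filled points have an adjusted p under 0.05. Both Hnrnpd values against WT are filled and lie below 0, Cdc45 is filled only for NPC against WT, and no Wdr77 value is filled.

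Counted over the 3 genes, 1 of 3 passed for NC against WT (Hnrnpd, lower), where 51.6% of the 62 tested genes passed, 27.4% as higher and 24.2% as lower. For NPC against NC 0 of 3 passed, where 14.5% of tested genes passed, 6.45% as higher and 8.06% as lower. At an unadjusted p under 0.05 in edgeR there was 1 of 3, against 16 of the 62 tested genes. In any other tool run 0 of 3 passed. For NPC against WT 2 of 3 passed (Cdc45 higher, Hnrnpd lower), where 64.5% of tested genes passed, 33.9% as higher and 30.6% as lower. Groups did not overlap for 1 of 3 genes in NC against WT (58.1% of tested genes), 1 of 3 in NPC against NC (27.4%) and 2 of 3 in NPC against WT (61.3%). These shares are near the background of the table, and with 3 genes they mark nothing out about them. The median absolute log2 fold change of the 3 genes was 0.055 for NC against WT, 0.052 for NPC against NC and 0.11 for NPC against WT. Over all tested genes it was 0.12, 0.060 and 0.15 in that order.

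The sign of a small change depends on the library size, so the 3 genes were also compared with each other inside each library, where library size cancels. These ratios of FPKM values were added after the values were seen. Cdc45 stood at 0.530, 0.531 and 0.546 times Hnrnpd in NPC replicates 1 to 3 and at 0.538, 0.502 and 0.523 times in NC replicates 1 to 3, against 0.414, 0.465 and 0.485 times in WT replicates 1 to 3. All NPC and NC libraries lay above every WT library. The log2 difference in this ratio was 0.20 for NC against WT and 0.24 for NPC against WT, and the exact two-sided permutation p was 0.1 for both, the smallest that 3 against 3 libraries allow.

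The ratio of Wdr77 to Hnrnpd was 0.350 ± 0.00548 in NPC, 0.375 ± 0.00525 in NC and 0.339 ± 0.0190 in WT (SD, n = 3 each). NC lay above WT in every library, by a log2 difference of 0.15, and NPC lay below NC in every library, at -0.10 (exact two-sided permutation p = 0.1 for each). NPC and WT overlapped (exact permutation p = 0.5). The ratio of Cdc45 to Wdr77 was 1.53 ± 0.0507 in NPC, 1.39 ± 0.0602 in NC and 1.34 ± 0.0417 in WT (SD, n = 3 each). NPC lay above NC in every library, by a log2 difference of 0.14, and above WT, by 0.19 (exact two-sided permutation p = 0.1 for each), whereas NC and WT overlapped (exact permutation p = 0.4). The exact test of 3 against 3 libraries cannot go below 0.1 at any size of difference, so these 9 ratio comparisons, which share libraries, are given as a description. How often the ratios of other gene pairs separate was not computed. Among single tested genes, groups did not overlap for 58.1% in NC against WT, 27.4% in NPC against NC and 61.3% in NPC against WT.

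**Figure D3:**
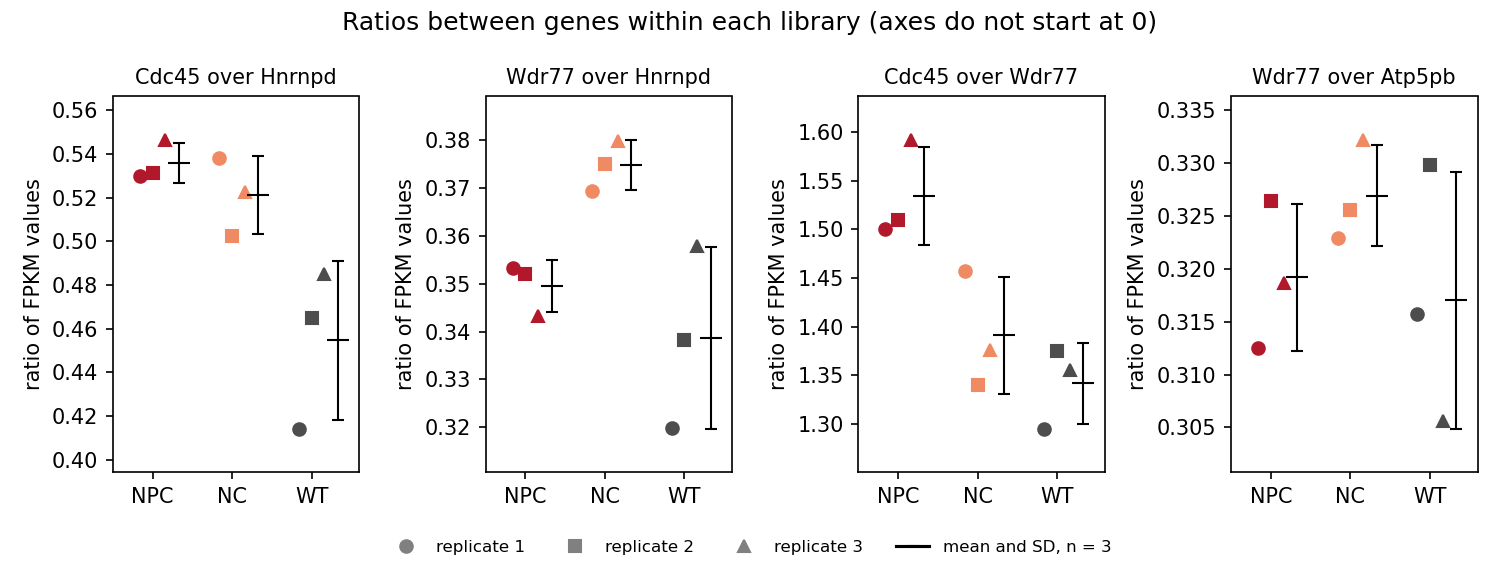
Ratio of FPKM values (vertical axes, which do not start at 0) between pairs of genes inside each library, by group, with the mean and SD of 3 libraries. Cdc45 over Hnrnpd lies at 0.414 to 0.485 in WT, below the 0.502 to 0.546 of NPC and NC, and Cdc45 over Wdr77 is highest in the NPC libraries.

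Few other genes of the same processes were in the table. A gene missing from the table has no value here, and its absence says nothing about its expression. Of 38 DNA replication genes, Cdc45 was the only one, and of 13 genes of the PRMT5 complex and Sm protein methylation, Wdr77 was the only one. Of 29 cell cycle genes, only Ccnd2, which encodes cyclin D2, was present. It averaged 12.3 ± 0.186 FPKM in NPC, 12.3 ± 0.208 FPKM in NC and 12.0 ± 0.448 FPKM in WT (SD, n = 3 each), with log2 fold changes of 0.042 ± 0.037 for NC against WT and 0.034 ± 0.037 for NPC against WT (SE; edgeR adjusted p = 0.387 and 0.431). Of 38 gene names listed for messenger RNA binding, processing and decay, 5 were present and tested, namely Hnrnpd, Dazap2, Rtca, Tbrg4 and Xpo6. The names Ksrp and Khsrp in that list stand for the same gene. The list does not hold every gene of these processes, so counts over it depend on its choice. In each of NC and NPC against WT, 1 of the 5 was higher and 2 were lower (51.6% and 64.5% of tested genes passed). In NPC against NC none of the 5 passed (14.5% of tested genes passed). Rtca alone of the 5 had an unadjusted p under 0.05 in edgeR there, as did 16 of the 62 tested genes.

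The members of that list differ in what they do. Tbrg4, which encodes a mitochondrial protein that acts on mitochondrial RNAs, fell with Hnrnpd, to 31.9 ± 1.81 FPKM in NPC and 30.5 ± 1.03 FPKM in NC, against 35.0 ± 0.913 FPKM in WT (SD, n = 3 each). Dazap2, a small protein named for its binding to the DAZ family of RNA-binding proteins, rose to 132.0 ± 3.71 FPKM in NPC and 127.6 ± 2.72 FPKM in NC, against 119.5 ± 3.69 FPKM in WT. Xpo6, a nuclear exporter of actin and not a binder of messenger RNA, had log2 fold changes of 0.015 for NC and -0.027 for NPC against WT and did not pass. Rtca, the RNA 3′-terminal phosphate cyclase gene, averaged 16.2 ± 0.444 FPKM in NPC, 17.8 ± 0.376 FPKM in NC and 17.5 ± 0.243 FPKM in WT, and did not pass (edgeR adjusted p = 0.0777 for NPC against NC and 0.0667 for NPC against WT).

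The tested genes whose pattern was most like each of the 3 were found by the Pearson correlation of log2(FPKM + 1) over the 9 libraries, as a description, since the libraries share their groups and depth. For Hnrnpd they included the respiratory genes Sdhd (r = 0.903) and Ndufa9 (0.889). Sdhd was at 101.6 ± 2.73 FPKM in NPC, 97.6 ± 1.29 FPKM in NC and 113.7 ± 3.20 FPKM in WT (SD, n = 3 each). For Cdc45 they were Dazap2 (0.859), the tetraspanin gene Tspan32 (0.815) and Sema4f (0.721). For Wdr77 they were Rtca (0.869), the Polycomb-type gene Scml2 (0.773) and the integrin gene Itga5 (0.748), with Atp5pb 6th at 0.725. Among the 3 genes, r was -0.433 between Cdc45 and Hnrnpd, -0.256 between Cdc45 and Wdr77 and 0.343 between Hnrnpd and Wdr77, so they did not share a pattern over the libraries.

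**Figure D4:**
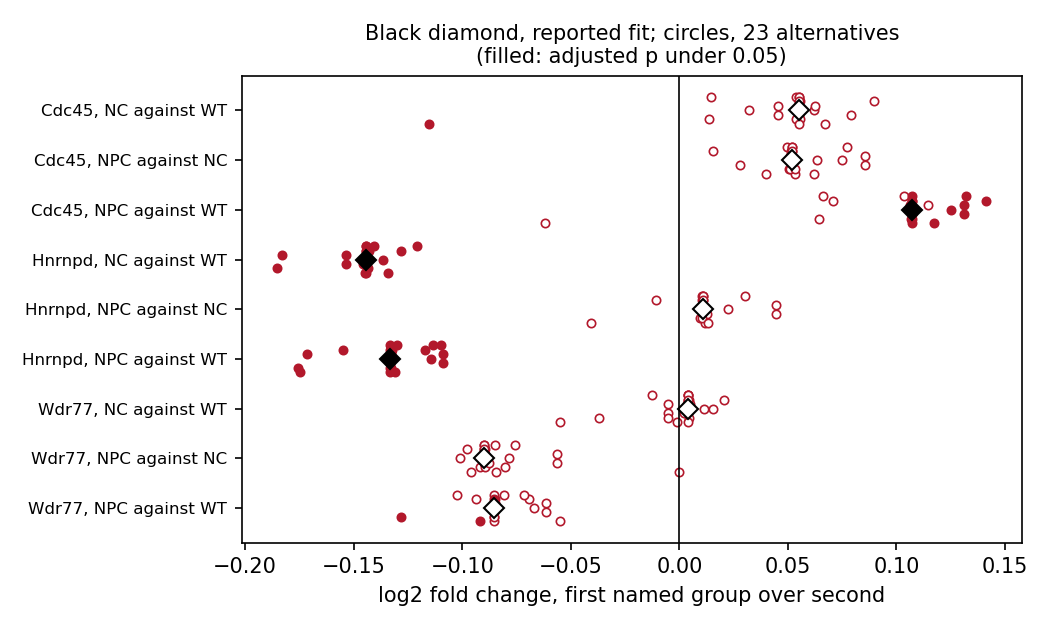
Log2 fold change (horizontal axis, first named group over second) of each gene and comparison in the reported fit (black diamonds) and in 23 alternatives (circles); filled symbols have an adjusted p under 0.05. All Hnrnpd circles against WT are filled and below 0, Cdc45 circles for NPC against WT are partly open with 1 below 0, and the Wdr77 circles for NC against WT straddle 0.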

How the data were processed

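Poly(A) RNA of 9 c-Kit+ bone marrow libraries was sequenced as strand-marked read pairs, per the labels' protocols. Tools named in the submitters' processing notes, without role or order, are cutadapt 1.9, HISAT2 2.2.1, StringTie 2.1.6, DESeq2 and edgeR, with the build GRCm39. The notes give neither the annotation release nor the strand setting. The authors deposited FPKM values and estimated counts per gene and library. The estimated counts are whole numbers whose lowest values gather at 4 (14 of 891 values, while 0 equal 1), so 1 fragment is taken as about 4 counts. Library depth was recovered from the ratio of estimated count to FPKM in the 61 genes whose counts reached 200 in all libraries, and 100% of their values were within 1% of the fit. Transcript lengths of 6 genes with 1 transcript each set the absolute scale. Intervals cover these libraries, and counting errors cover counting only.

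The estimated counts were fitted with edgeR 4.0.16 in R 4.3.3 by its quasi-likelihood method, with 1 mean per group over all 9 libraries, no block, and the recovered depth as library size. Of 99 genes, the 62 that reached 1 FPKM in 3 or more libraries were tested. P-values were two-sided and adjusted by the Benjamini-Hochberg method over those genes, with a threshold of 0.05. The fit was tested on 50 simulated data sets of 62 genes, with 15 genes changed in NC and 1 common spread for all genes. For NC against WT, a log2 change of 0.1 was called in 14.8% of cases and a change of 0.25 in 91.6%. Unchanged genes were called in 0.851% of cases. A missing call on Cdc45 or Wdr77 for NC against WT therefore says little about differences near or below 0.1. The fit of the data called 32 genes in that comparison, more than the 15 changed in the simulation. Other shares of changed genes and the other comparisons were not simulated, so the percentages cover this setting only. How much a missing call says in the other comparisons was not tested. Alternatives used limma 3.58.1 on log2(FPKM + 1) and log2(FPKM + 0.1), DESeq2 1.42.0, other scalings, filters (none, or FPKM of at least 5), counts divided by 4, the 2 groups compared alone, robust moderation, the replicate block, NC replicates 2 and 3 averaged and leaving out each library. Genes named are Cdc45, Hnrnpd, Wdr77, Atp5pb, the 3 tested genes most correlated with each of the 3 main genes, and members of the fixed lists found in the table. A result that this rule names is not reported here. The genes and lists were chosen with earlier results of these data known. Start-site windows are from RefSeq on GRCm38.p6. Figures were made with Python 3.11.15 and matplotlib 3.10.9.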

Additional observations from a re-analysis of the deposited data

How the results depend on the processing

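Each gene and comparison was refitted under 23 alternatives. Hnrnpd kept its falls against WT in all of them, and leaving out 1 library gave log2 fold changes of -0.1828 to -0.1208 for NC and -0.1717 to -0.1097 for NPC. For Cdc45 in NPC against WT the rise was not past the threshold with limma on log2(FPKM + 1) (0.1033), limma on log2(FPKM + 0.1) (0.1071) or library sizes set to the table's summed counts (0.0643), and leaving out 1 library gave 0.0663 to 0.1414. For Wdr77 in NPC against WT the fall passed with the summed counts as library size (-0.1284), the stricter filter (-0.0856) and robust moderation (-0.0856), and leaving out 1 library gave -0.1022 to -0.0692. Quantile normalization turned the sign of Cdc45 to -0.1155 for NC and -0.0620 for NPC against WT, of Hnrnpd to -0.0408 for NPC against NC and of Wdr77 to -0.0551 for NC against WT, and set Wdr77 for NPC against NC to 0.0000. With DESeq2 and the median of ratios that last value was -0.0564 and -0.0563, and Cdc45 for NPC against NC was 0.0855 in both. Leaving out 1 library gave 0.0157 to 0.0770 for Cdc45 in NPC against NC and 0.0145 to 0.0896 in NC against WT. The near-0 value of Wdr77 for NC against WT was also negative with DESeq2 (-0.0051), median of ratios (-0.0050), the summed counts (-0.0368) and NC replicates 2 and 3 averaged (-0.0013), and ran from -0.0124 to 0.0206 with 1 library left out. Hnrnpd for NPC against NC ran from -0.0106 to 0.0304 there, and the log2 Wdr77 to Atp5pb ratio for NPC against WT from -0.0159 to 0.0390.

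Counts of changed genes were 32 for NC against WT, 9 for NPC against NC and 40 for NPC against WT. The count for NPC against NC became 5 under quantile normalization, 4 with NC replicates 2 and 3 averaged and 14 with DESeq2, and 3 to 15 with 1 library left out. The split of 17 higher and 15 lower for NC against WT became 12 and 18 under quantile normalization, and that of 21 and 19 for NPC against WT became 15 and 25, or 18 and 26 with library sizes set to the table's summed counts. That of 4 and 5 for NPC against NC became 9 and 5 with DESeq2, or 3 and 2 by the quantile method. No scaling moved the median of all genes by over 0.1 on the log2 scale. The shift was -0.077 for NC against WT under quantile normalization and -0.043 for NPC against WT with the summed counts. In these comparisons, in that order, Cdc45 was at 0.0552 and 0.1070 and Wdr77 at 0.0042 and -0.0856. A shift below 0.1 is therefore not small for these genes. The cause of these shifts was not tested.

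In no comparison did all same-numbered libraries deviate together (correlations of -0.30 to 0.29), so these values gave no sign of pairing by replicate number. The labels state no pairing, and weak correlations cannot show that equal numbers share no batch. The replicate block changed no call on the 3 genes and gave -0.1438 for Hnrnpd in NC against WT, and the counts with it were 31, 9 and 40. Counting error was larger for Cdc45 and Wdr77, at 2.31% to 2.44% per library, than for Hnrnpd, at 1.14% to 1.17%. The observed coefficient of variation of Cdc45 lay above its counting error in each group, at 3.26% to 5.32%.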
